A study of Mus musculus with 4 samples.

Results

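The tubulin isotypes described here are 10 genes, of 23309 gene symbols measured, that encode alpha-tubulin (Tuba1a, Tuba1b, Tuba1c and Tuba4a) and beta-tubulin (Tubb2a, Tubb2b, Tubb2c, Tubb3, Tubb5 and Tubb6). They were chosen by gene name, with earlier results of these data known. The expression tables list 9 of them under these symbols. Tubb2c is an older symbol of Tubb4b in RefSeq, the tables list that gene as Tubb4b, and it is called Tubb4b below. RNA was sequenced from mouse oocytes of the ICR strain in 4 groups with 1 library each: wild-type GV, Erk-/- GV, wild-type MII and Erk-/- MII. GV oocytes are immature and still hold their nucleus, the germinal vesicle, and MII oocytes are mature eggs arrested in the second meiotic metaphase. Each library was made from 60 pooled oocytes or embryos of females aged 21 to 23 days, and the protocols name the gonadotropins PMSG and hCG for all of them. Groups follow the sample titles and genotype labels, since the treatment text names Btg4-/- where the labels have Erk-/-, and the design text counts single oocytes. The labels do not say which Erk allele was deleted, by which Cre driver, or from how many females each pool came.

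In the wild-type libraries, 9 of the 10 isotypes were at least 2-fold lower at MII than at GV and 1, Tubb3, was higher. Many genes differed in this comparison: of 9990, 49.6% were lower and 20.6% higher by the same 2-fold limit. After each library was scaled to the median ratio of its genes, 7 isotypes were still at least 2-fold lower and 1 higher. Tubb3 went from 9.65% to 87.2% of the beta-tubulin transcripts measured. In the MII library labelled Erk-/-, Tubb3 was 4.41 times its GV level, beside 4.48 times in the wild type, while Tubb2a, Tubb2b, Tubb5 and Tubb6 were between 7.33 and 29.4 times their wild-type MII levels. The largest of these ratios, for Tubb5, rests on a low value of 1.39 FPKM in wild-type MII. These are differences between single libraries. With 1 library per group there is no spread between replicates, so no test was made and no difference below has a replicate check.

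Tubulin is a heterodimer of 1 alpha and 1 beta subunit. Dimers join end to end into the protofilaments of microtubules, which build the meiotic spindle that segregates chromosomes in the oocyte. The isotypes have nearly the same globular core and differ mostly in their acidic carboxy-terminal tails, which lie on the microtubule surface and are the sites of tyrosination and polyglutamylation. Cells also adjust tubulin mRNA to the pool of unpolymerised dimers: TTC5 reads the first residues of the nascent chain on the ribosome and, through SCAPER and CNOT11, brings a deadenylase complex to the mRNA. The ERK kinases, among them the product of Mapk3, are active through meiotic maturation of the oocyte.

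The tails of Tuba4a and 5 beta isotypes are shown because most isotypes differ there, although Tubb2a and Tubb2b have the same acidic codons. Each line gives the last 60 coding bases before the stop codon, 5′ to 3′, from the GENCODE M21 transcripts of mouse build GRCm38, and capitals mark the codons for glutamate and aspartate.
Tuba4a: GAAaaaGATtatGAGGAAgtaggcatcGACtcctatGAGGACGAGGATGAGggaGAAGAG
Tubb2a: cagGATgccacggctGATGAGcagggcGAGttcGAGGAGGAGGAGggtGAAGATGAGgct
Tubb2b: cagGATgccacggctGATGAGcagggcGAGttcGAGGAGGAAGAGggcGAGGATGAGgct
Tubb4b: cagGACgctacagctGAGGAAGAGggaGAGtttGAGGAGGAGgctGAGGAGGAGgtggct
Tubb3: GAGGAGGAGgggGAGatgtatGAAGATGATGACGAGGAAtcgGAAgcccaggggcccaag
Tubb5: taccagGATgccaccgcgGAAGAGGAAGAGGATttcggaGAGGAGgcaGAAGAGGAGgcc
Of the 20 codons shown, 12 encode glutamate or aspartate in Tuba4a and 11 in each of the 5 beta-tubulin genes. The glutamate codons of the beta genes range from 8 in Tubb2a, Tubb2b and Tubb3 to 10 in Tubb4b. In both Tubb2a and Tubb2b, 8 glutamate and 3 aspartate codons fall at the same places, so this stretch does not separate that pair. In Tubb3 the acidic codons lie nearer the start of the stretch, and the last 5 codons hold none.

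The first 12 coding bases encode the residues by which TTC5 recognises nascent tubulin. They are given from the same transcripts, with Tuba1a and Tuba1c identical to Tuba1b.
Tuba1b: atgcgtgagtgc
Tuba4a: atgcgcgagtgc
Tubb2a: atgcgcgagatc
Tubb2b: atgcgagagatc
Tubb3: atgagggagatc
Tubb4b: atgagggagatc
Tubb5: atgagggaaatc
Tubb3 and Tubb4b carry the same 12 bases. Feedback on tubulin mRNA was not tested here.

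In oocytes, mRNAs with the cytoplasmic polyadenylation element TTTTAT near the 3′ end can gain poly(A) during maturation. The last 150 bases of the 3′ UTR, or all of it where shorter (101 bases in Tuba1c and 148 in Tubb4b), were searched on the mRNA strand for TTTTAT and its variant TTTTAAT, for the polyadenylation signal AATAAA and for the Pumilio motif TGTANATA. TTTTAT was found in 2 of the 10 isotypes, and in 3375 of 18235 mouse genes with a 3′ UTR of at least 150 bases (18.5%). The shares of genes below have the same base, which leaves out Tuba1c and Tubb4b. These sites are shown with the motif in capitals and 9 bases on each side.
Tubb2b: ttatatcatTTTTATgatgctggg
Tubb3: ttcgtctgtTTTTATggtttgttt
The motif starts 94 bases from the annotated 3′ end in Tubb3 and 31 bases from it in Tubb2b. TTTTAAT, held by 6.73% of genes, and TGTANATA, held by 1094 genes, were found in none of the 10. AATAAA, held by 66.1% of genes, was found in 6: Tuba1a, Tuba1c, Tubb2a, Tubb3, Tubb5 and Tubb6. A match is only a run of letters. The ends of these transcripts in oocytes were not measured.

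Several isotypes share much of their sequence with other genes, which bears on every value below. All 50-base words of each transcript were looked up in all other genes of the annotation. None of the words of Tubb3 or Tubb6 and 0.115% of those of Tubb5 occur in another gene. In Tubb2a the share was 49.6% and in Tubb2b 39.3%, mostly in each other, and their coding sequences are 96.5% identical. Among the alpha genes the share was 75.5% in Tuba1a, 83.1% in Tuba1b and 61.0% in Tuba1c, and the coding sequences of Tuba1a and Tuba1b are 98.3% identical. Tubb4b shared 55.5% of its words, most with processed pseudogenes. Tuba4a shared 48.8%, nearly all where its 3′ UTR overlaps Stk16, a kinase gene listed at 0.502 FPKM in the wild-type GV library and at 0 in the others. Reads in shared stretches may be split between copies, so levels of Tuba1a, Tuba1b, Tuba1c, Tubb2a, Tubb2b and Tubb4b are uncertain as levels of 1 gene. How reads in the overlap of Tuba4a and Stk16 were assigned is not known, so the level of Tuba4a is uncertain too. Sharing was looked up for the isotypes only, and not for the other alpha-tubulin genes named below. Coding identity between the other pairs of beta genes ranged from 80.2% to 86.0%.

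**Figure D1:**
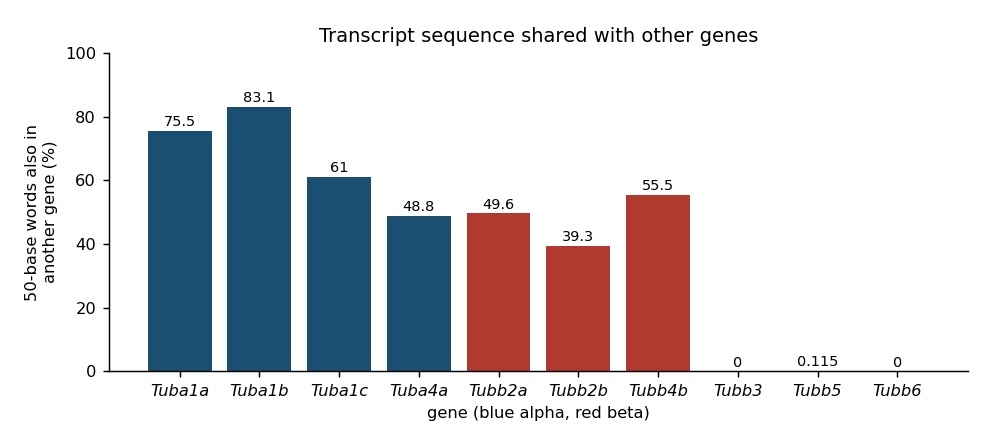
Share of each isotype's 50-base transcript words that also occur in another gene of the annotation (percent, 1 bar per gene; blue bars are alpha-tubulin, red bars beta-tubulin). Tubb3, Tubb5 and Tubb6 stand at or near 0, and the other 7 lie between 39.3% and 83.1%.

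Values are FPKM, the fragments on a gene divided by transcript length and by the mapped total, so genes can be compared with each other within a library and each value is relative to its library's total. A lower share of the total and less RNA per oocyte cannot be told apart in such values, nor can fewer cells of a type in a pool. The files hold no counts, so sequencing depth is unknown. The authors' lower and upper bounds per gene cover uncertainty within a library only; 21 of the 40 isotype values lie above their own upper bound, at 1.07 to 1.11 times the midpoint of the bounds. All 9 oocyte markers were at 1 FPKM or more in every library, with a sum of 7633 to 15671 FPKM. Of 13 granulosa and cumulus markers, 9 to 11 were listed at 0 and the sum was 13.4 to 22.6 FPKM, led by Cyp19a1 or Inha, with Amh, Foxl2 and Fshr at 0 throughout; 5 theca and stroma markers summed to at most 1.57 FPKM and 6 blood markers to 0. Mapk3 was at 333 FPKM in wild-type and 52.3 FPKM in Erk-/- GV oocytes, but at MII it was at 25.7 FPKM in the wild type and at 34.3 FPKM in the library labelled Erk-/-, which is not lower as that label would have it. The MII library labelled Erk-/- is therefore called by its label below.

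In wild-type GV, 3 of the alpha isotypes were of similar level, and in Erk-/- GV the same 3 lay further apart. Tuba3a, an alpha-tubulin gene outside the isotypes described here, was higher than each of them, at 290.3 FPKM in the wild type and 242 FPKM in Erk-/-. Tuba1c, widely expressed in dividing cells, was at 191 FPKM in the wild type and 199.7 FPKM in Erk-/-. Tuba4a, an alpha-tubulin whose gene does not encode the terminal tyrosine, was at 185 and 148 FPKM. Tuba1b, another broadly expressed isotype, was at 169 and 111 FPKM, and Tuba1a, best known from developing neurons, at 52.4 and 52.3 FPKM. The values had the same order in both libraries. In the wild type, Tuba1c was 1.03 times Tuba4a and Tuba4a 1.09 times Tuba1b, gaps within the 1.07 to 1.11 times by which deposited values exceed the midpoint of their bounds, so the order of these 3 is not resolved.

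Beta-tubulin transcripts at GV were led by Tubb4b and Tubb2a. Tubb4b, a broadly expressed isotype also found in cilia, was at 842 FPKM in the wild type and 1030.2 FPKM in Erk-/-. Tubb2a was at 833 and 541 FPKM and its near copy Tubb2b at 290.3 and 225 FPKM; both are abundant in brain. Tubb6, a divergent isotype of non-neuronal cells, was at 323 and 459 FPKM. Tubb3, the isotype used as a marker of neurons, was at 253 and 222 FPKM, and Tubb5, the main beta-tubulin of many proliferating cells, at 80.8 and 90.9 FPKM. The order Tubb4b, Tubb2a, Tubb6, Tubb2b, Tubb3, Tubb5 was that of the values in both GV libraries. Tubb4b and Tubb2a in the wild type, 1.01 times apart, and Tubb2b and Tubb3 in Erk-/-, whose bounds overlapped, are not resolved.

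**Figure D2:**
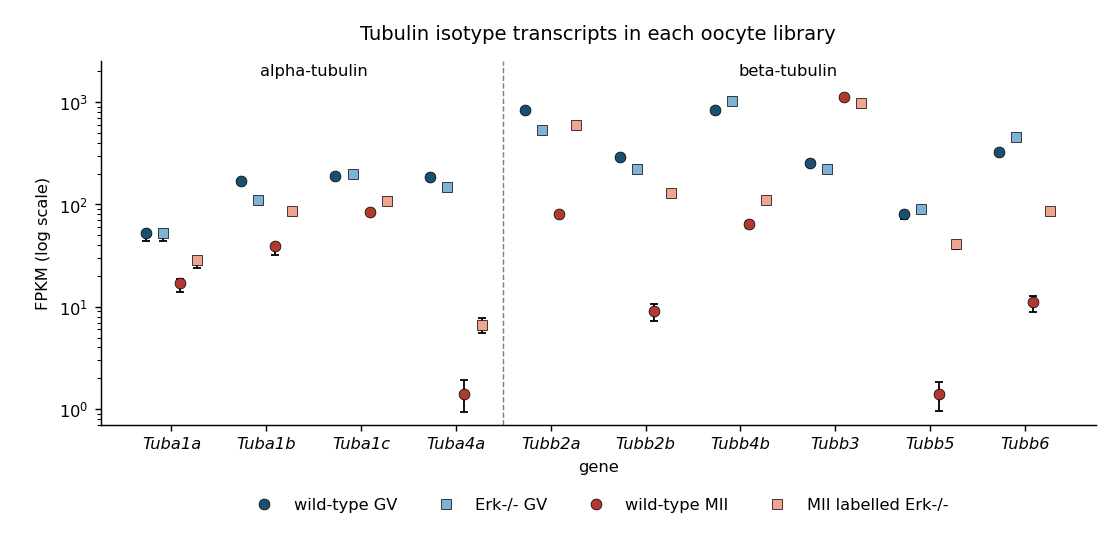
FPKM (log scale) of each isotype in the 4 libraries, 1 point per library. Bars are the authors' lower and upper bounds, drawn only for values that lie within them. Tubb3 is the only isotype with both MII points above both GV points, at 1134 and 977 against 253 and 222 FPKM.

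From GV to MII in the wild type, all alpha isotypes were lower. Tuba4a fell furthest, from 185 to 1.41 FPKM, a 131-fold difference. Tuba1b was at 38.9 FPKM at MII, Tuba1a at 17.2 and Tuba1c at 85.0 FPKM, which are 4.35-, 3.05- and 2.24-fold below their GV levels. At MII Tuba4a was the lowest alpha isotype, behind Tuba1c, Tuba1b and Tuba1a in that order.

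Of the 6 beta isotypes, 5 were lower at MII in the wild type. Tubb5 went from 80.8 to 1.39 FPKM, 58.1-fold. Tubb2b went from 290.3 to 9.07 FPKM, 32.0-fold, and Tubb6 from 323 to 11.0 FPKM, 29.2-fold. Tubb4b was 13.1-fold lower, at 64.0 FPKM, and Tubb2a 10.2-fold lower, at 81.3 FPKM. Tubb3 alone was higher, at 1134 FPKM, 4.48 times its GV level. At MII it led the beta isotypes, followed by Tubb2a, Tubb4b, Tubb6, Tubb2b and Tubb5, and the bounds of Tubb6 and Tubb2b overlapped.

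A gene was counted as higher or lower where it differed at least 2-fold after 1 was added to each FPKM, among 9990 genes whose mean reached 1 FPKM, all 10 isotypes included. By that rule 9 of the 10 isotypes were lower at MII in the wild type, beside 49.6% of all genes, and 1 was higher, beside 20.6%. The median log2 ratio of the isotypes was -3.52 and that of all genes -0.97. Each library can also be scaled to the median ratio of its genes (median-of-ratios scaling), which moved the median of all genes to -0.29 and the share of higher genes among those counted from 29.3% to 42.4% (2965 higher and 4029 lower). With that scaling 7 isotypes were lower and 1 higher, since Tuba1a (-0.75) and Tuba1c (-0.33) came within 2-fold. Of the 9 oocyte markers, 7 were lower at MII as well, and 3570 genes reached 10 FPKM in the wild-type MII library against 4397 to 5682 in the others; the part of such whole-library differences in the isotype values was not tested.

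In the pair of libraries labelled Erk-/-, fewer isotypes differed between the stages. Tuba4a was at 6.66 FPKM in the MII library, 22.2-fold below its GV level, Tubb4b at 111 FPKM, 9.32-fold below, and Tubb6 at 86.6 FPKM, 5.30-fold below. Tubb5 was at 40.9 FPKM, 2.22-fold below GV, and came within 2-fold under median-of-ratios scaling (-0.93). Tubb3 was at 977 FPKM, 4.41 times its GV level. The other 5 stayed within 2-fold: Tubb2a was at 596 FPKM and Tubb2b at 129 FPKM, against 541 and 225 FPKM at GV, and Tuba1a, Tuba1b and Tuba1c were at 28.8, 86.5 and 109 FPKM. That makes 4 of 10 lower beside 35.6% of all genes and 1 higher beside 22.9%, shares close to those of all genes. The median log2 ratio was -0.85 for the isotypes and -0.26 for all genes, or -0.65 and -0.07 with scaling.

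**Figure D3:**
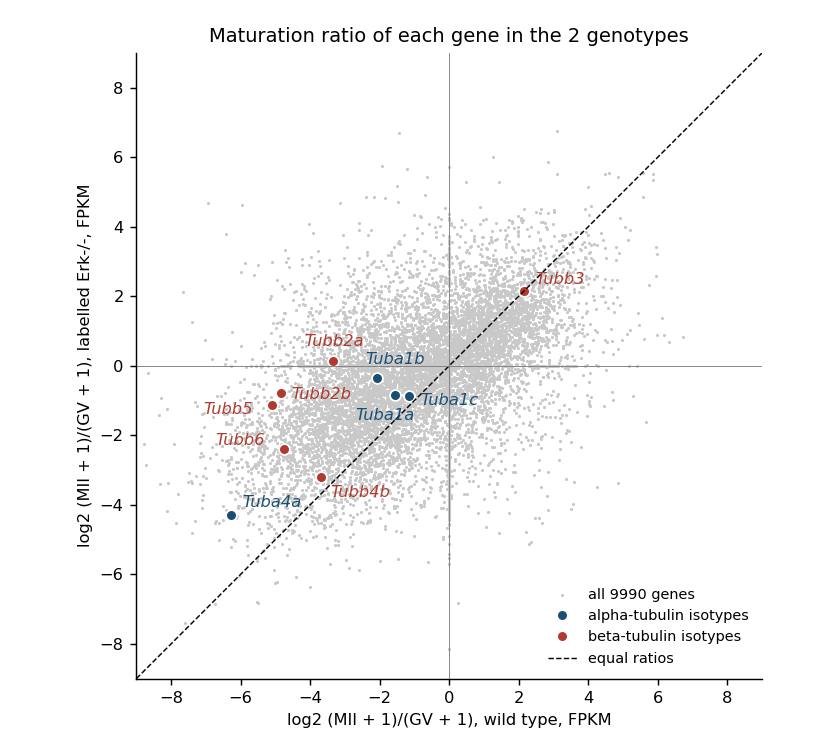
Log2 ratio of MII to GV (1 added to each FPKM) in the wild type (horizontal axis) and in the libraries labelled Erk-/- (vertical axis), 1 point per gene; grey points are all 9990 genes, of which 1 lies outside the axes, and the dashed line marks equal ratios. In these unscaled values Tubb3 sits on the line at 2.16 and 2.14, Tubb2b, Tubb5 and Tubb2a lie furthest above it, and Tubb4b lies close to it at -3.70 and -3.21.

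Subtracting the wild-type log2 ratio from that of the libraries labelled Erk-/- gives the difference in maturation for each isotype. It was 4.06 for Tubb2b, 3.96 for Tubb5, 3.48 for Tubb2a, 2.35 for Tubb6, 1.99 for Tuba4a and 1.73 for Tuba1b. It was under 1 for Tuba1a (0.72), Tubb4b (0.49) and Tuba1c (0.29), the last 2 of which turned negative with scaling (-0.13 and -0.33), and -0.03 for Tubb3 (-0.65 with scaling). In all, 6 of 10 isotypes had a difference of at least 2-fold towards higher values in the libraries labelled Erk-/-, beside 41.2% of all genes, and none towards lower values, beside 18.8%. The medians were 1.86 for the isotypes and 0.59 for all genes, or 1.33 and 0.10 with scaling, which took the share of higher genes among those counted from 68.7% to 55.1% (3260 higher and 2658 lower).

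At GV every isotype lay within 2-fold between the genotypes. None was 2-fold higher or lower in the Erk-/- GV library, beside 18.4% of all genes higher and 22.9% lower. The widest gaps were for Tubb2a, 1.54-fold lower in Erk-/-, Tuba1b, 1.52-fold lower, and Tubb6, 1.42-fold higher. The log2 ratios ran from -0.62 to 0.51 with a median of -0.10, beside -0.06 for all genes. Scaling turned the sign of Tuba1a alone, from -0.00 to 0.08.

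At MII 6 isotypes were at least 2-fold higher in the library labelled Erk-/-, beside 31.4% of all genes, and none was lower, beside 7.43%. Tubb5 was at 40.9 against 1.39 FPKM, 29.4-fold higher. The bounds of that low wild-type value ran from 0.967 to 1.83 FPKM. After 1 was added, the log2 ratio of Tubb5 was 4.13, or 3.77 with scaling. Tubb2b was 14.3-fold higher, Tubb6 7.84-fold, Tubb2a 7.33-fold, Tuba4a 4.74-fold and Tuba1b 2.23-fold. Tubb4b was 1.73-fold and Tuba1a 1.68-fold higher, both within the 2-fold limit. Tuba1c was 1.28-fold higher, a direction that turned with scaling (log2 0.36, then -0.17). Tubb3 was 1.16-fold lower, and further below the wild type with scaling (log2 -0.22, then -0.75). The median log2 ratio was 1.40 for the isotypes and 0.31 for all genes. With median-of-ratios scaling it was 0.96 and 0.00, 5 isotypes were higher (Tuba1b then at 0.61), and the share of higher genes among those counted went from 80.9% to 59.1% (2463 higher and 1706 lower). Of the oocyte markers 6 of 9 were higher in this library too. This comparison uses the same MII libraries as the maturation ratios, so it is another view of the same values and not a second observation.

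Tubb3, Tubb5 and Tubb6 have sequences that are almost all their own. Tubb5 and Tubb6 were lower at MII in both genotypes and higher at MII in the library labelled Erk-/-, and Tubb3 was higher at MII in both. Read together, Tubb2a and Tubb2b summed to 1123 and 765 FPKM at GV (wild type and Erk-/-) and to 90.4 FPKM in wild-type MII, against 726 FPKM in its counterpart labelled Erk-/-. The sum was 12.4-fold lower at MII in the wild type and 8.03-fold higher at MII in the library labelled Erk-/- (6.98- and 5.54-fold with scaling), so neither difference depends on how reads were divided between this pair. Tuba1a, Tuba1b and Tuba1c summed to 412, 363, 141 and 224 FPKM in these 4 libraries, 2.92-fold lower at MII in the wild type and 1.62-fold lower in the libraries labelled Erk-/-. With scaling these were 1.64- and 1.40-fold.

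The summed beta-tubulin level depended on Tubb3. The 6 beta isotypes summed to 2621 FPKM in wild-type GV and 1301 FPKM in wild-type MII, 2.01-fold apart. Without Tubb3 the sums were 2368 and 167 FPKM, 14.2-fold apart. In the libraries labelled Erk-/- the beta sum was 2567 FPKM at GV and 1941 FPKM at MII, and without Tubb3 it was 2345 and 964 FPKM, 2.43-fold apart. At MII the beta sum without Tubb3 was 5.78-fold higher in the library labelled Erk-/-, and with Tubb3 1.49-fold higher. Sums moved with median-of-ratios scaling: the full beta sum was then 1990 at GV and 1760 at MII in the wild type, 1.13-fold apart, and 1.03-fold higher at MII in the library labelled Erk-/-. Without Tubb3 the scaled sums were 7.97-fold apart in the wild type and 3.99-fold higher at MII in the library labelled Erk-/-. Shares within a library do not change with scaling.

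As shares of the beta sum, Tubb4b and Tubb2a made up 32.1% and 31.8% in wild-type GV, Tubb6 12.3%, Tubb2b 11.1%, Tubb3 9.65% and Tubb5 3.08%. In Erk-/- GV the shares were 40.1% for Tubb4b, 21.1% for Tubb2a, 17.9% for Tubb6 and 8.63% for Tubb3. In wild-type MII Tubb3 made up 87.2%, Tubb2a 6.25% and Tubb4b 4.92%, and the other 3 were under 1% each. In the MII library labelled Erk-/- Tubb3 made up 50.3% and Tubb2a 30.7%, while Tubb2b, Tubb4b, Tubb6 and Tubb5 had 6.67%, 5.70%, 4.46% and 2.11%. Tubb3 led both MII libraries, and the share of Tubb2a was higher in the one labelled Erk-/-.

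The alpha isotypes summed to 597 FPKM at GV in the wild type and 511 FPKM in Erk-/-, and to 142 and 231 FPKM at MII. The wild-type sums were 4.19-fold apart, or 2.35-fold with scaling, and at MII the sum was 1.62-fold higher in the library labelled Erk-/-, or 1.12-fold. Tuba1c went from 32.0% to 59.7% of the sum in the wild type and from 39.04% to 47.2% in the libraries labelled Erk-/-. With all alpha genes counted, it went from 20.5% to 40.4% and from 25.0% to 27.2%. Tuba4a went from 30.9% to 0.987% and from 29.0% to 2.88%. The sum of beta was 4.39 times that of these alpha isotypes in wild-type GV and 9.13 times in wild-type MII, and 5.02 and 8.40 times in the libraries labelled Erk-/-. These ratios leave out Tuba3a, Tuba3b and Tubal3. With all genes of both classes counted, they were 2.81 and 6.18 in the wild type, and 3.22 and 4.83 in the libraries labelled Erk-/-. All 10 isotypes made up 0.710% of summed FPKM at GV in the wild type and 0.731% in Erk-/-, and 0.360% and 0.524% at MII.

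**Figure D4:**
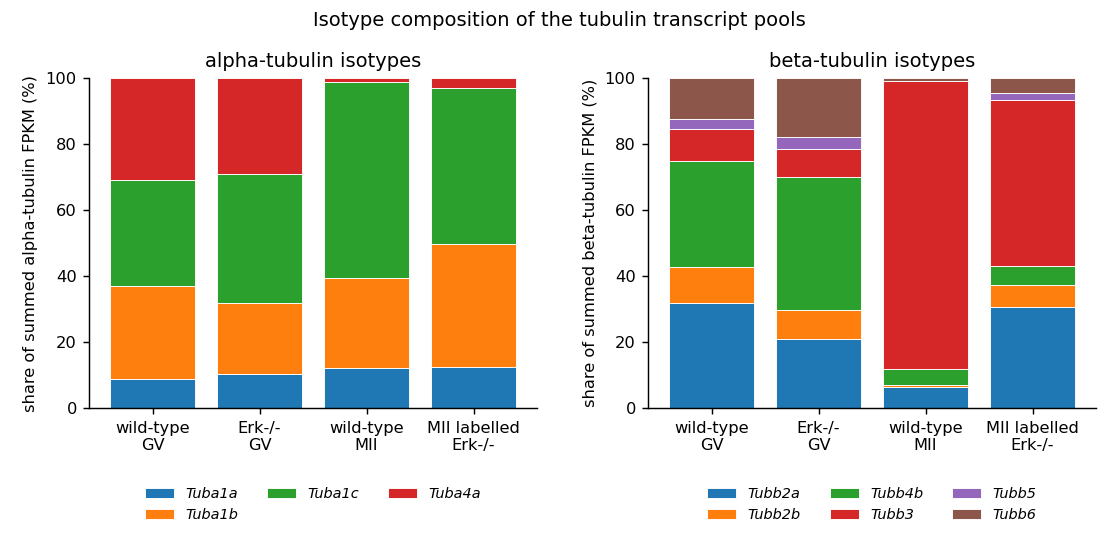
Share of each isotype in the summed FPKM of the 4 alpha isotypes (left) and the 6 beta isotypes (right), in percent, 1 bar per library. Tubb3 fills 87.2% of the beta bar for wild-type MII and 50.3% of that for MII labelled Erk-/-, against 9.65% and 8.63% at GV.

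Of the other alpha-tubulin genes, Tuba3a was as abundant as the isotypes above. It was at 290.3 and 242 FPKM at GV (wild type first, then Erk-/-) and at 34.3 and 131 FPKM at MII, an order kept in the lists of 4 values below, and, counted with them, held 31.1%, 30.4%, 16.3% and 32.6% of alpha transcripts. Tuba3b had 41.2, 36.6, 13.3 and 22.9 FPKM. Tubal3, a divergent alpha-like gene, was higher at MII, with 3.41, 7.42, 20.5 and 16.7 FPKM. Tuba8, Tubb1 and Tubb4a, isotypes known from muscle and testis, blood platelets and brain, were listed at 0 in all libraries. Both gamma-tubulins, which nucleate microtubules at spindle poles, were at least 2-fold lower at MII in the wild type and within 2-fold in the libraries labelled Erk-/-: Tubg2 had 268, 209, 129 and 220.1 FPKM and Tubg1 63.2, 45.6, 30.4 and 46.5 FPKM. With scaling both came within 2-fold in the wild type too, and the difference between genotypes was not tested.

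The chaperonin CCT closes around newly made tubulin, and 7 of its 8 subunit genes were lower at MII in the wild type and 6 of 8 in the libraries labelled Erk-/-, beside 49.6% and 35.6% of all genes. Their median log2 ratio in the wild type was -3.71, beside -0.97 for all genes. Cct5 had 233 and 0.0552 FPKM at GV and MII in the wild type, and 214 and 15.6 FPKM in the libraries labelled Erk-/-. Cct3 had 176 and 10.9 FPKM, and 132 and 48.2 FPKM. At MII 4 of 8 were higher in the library labelled Erk-/- (Cct2, Cct3, Cct5 and Cct7), beside 31.4% of all genes. None was lower (with scaling 1 was), beside 7.43% of all genes, and the median was 1.49 beside 0.31. Cct8 stayed within 2-fold throughout, between 78.5 and 99.2 FPKM. Prefoldin hands tubulin to the chaperonin, and 3 of its 6 genes were lower at MII in the wild type and 1 higher, beside 49.6% and 20.6% of all genes, with a median of -0.91 beside -0.97. Between genotypes at MII its median was 0.22, and -0.29 with scaling. Pfdn4 was the higher one, with 120 and 576 FPKM in the wild type and 178 and 459 FPKM in the libraries labelled Erk-/-. Vbp1 was lower, with 71.2 and 1.85 FPKM, and 72.9 and 7.38 FPKM.

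The tubulin-folding cofactors assemble alpha and beta into dimers. Of 7 genes 6 were measured above the minimum, 4 were lower at MII in the wild type, and 4 were higher at MII in the library labelled Erk-/-, 2 with scaling. All genes had 49.6% lower and 31.4% higher in these comparisons. The list's medians were -1.61 and 1.15, beside -0.97 and 0.31 for all genes. Arl2, the small GTPase of this machinery, had 99.0, 53.6, 7.21 and 44.6 FPKM. Tbce, the cofactor that binds alpha-tubulin, had 15.4, 12.2, 0.0539 and 0 FPKM. Of the 3 genes of the mRNA feedback, Ttc5 had 32.6 FPKM in wild-type GV and 7.27 FPKM in Erk-/- GV, and was listed at 0 in both MII libraries. Scaper had 11.2, 4.31, 1.92 and 1.05 FPKM, and Cnot11 77.2, 70.4, 58.1 and 77.7 FPKM, within 2-fold in every comparison.

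Of 21 genes for enzymes that modify tubulin, 11 were measured above the minimum. In the wild type 3 were higher and 6 lower at MII, and at MII 5 were higher and none lower in the library labelled Erk-/-, with 2 lower after scaling. These counts are close to the shares of all genes in the wild type (20.6% higher and 49.6% lower), and at MII those were 31.4% and 7.43%. The medians were -1.36 and 0.09, beside -0.97 and 0.31 for all genes. Ttll11, a polyglutamylase, had 57.0, 28.9, 2.91 and 11.7 FPKM. Agtpbp1, which trims glutamate chains from tubulin tails, was higher at MII in the wild type, with 9.12, 19.1, 51.9 and 33.9 FPKM. Atat1, the alpha-tubulin acetyltransferase, had 6.19, 0, 28.8 and 17.9 FPKM, and Sirt2, a deacetylase of tubulin, 13.2, 7.72, 0 and 0.0609 FPKM.

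Of 16 microtubule-associated and plus-end genes 13 were measured; 4 were higher and 5 lower at MII in the wild type, beside 20.6% and 49.6% of all genes, with a median of 0.37 beside -0.97. Ckap5, the microtubule polymerase of spindle assembly, had 21.5, 23.8, 57.5 and 79.4 FPKM. Clip1, a plus-end linker, had 28.5, 32.7, 0 and 7.34 FPKM. At MII 3 were higher and 1 lower in the library labelled Erk-/-, beside 31.4% and 7.43% of all genes. The lower one was Mapre1 (EB1), with 70.6 FPKM in the wild type and 26.2 FPKM in that library. Of the stathmins and severing enzymes, 7 of 11 were measured, and 3 were lower and 1 higher at MII in the wild type, with a median of -0.89, shares and median near those of all genes. Stmn1, which sequesters tubulin dimers, had 81.7, 44.1, 17.2 and 48.8 FPKM, and Spast, which cuts microtubules, 45.0, 44.0, 15.1 and 50.8 FPKM. Medians of these 2 lists at MII between genotypes, 0.46 and 0.15, turned negative with scaling (-0.07 and -0.18). Of 7 measured genes of the gamma-tubulin ring complex, 3 were higher and 3 lower at MII in the wild type, beside 20.6% and 49.6% of all genes. Their median log2 ratio was 0.65, beside -0.97 for all genes. Mzt2 had 0.109, 9.49, 14.2 and 1.08 FPKM, opposite in direction in the 2 genotypes. Tubgcp2, lower at MII, had 27.7, 30.1, 2.30 and 1.05 FPKM, and Mzt1 4.40, 5.93, 24.7 and 17.0 FPKM. Nedd1, the spindle adaptor of this complex, had 29.8, 12.8, 73.1 and 63.2 FPKM.

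**Figure D5:**
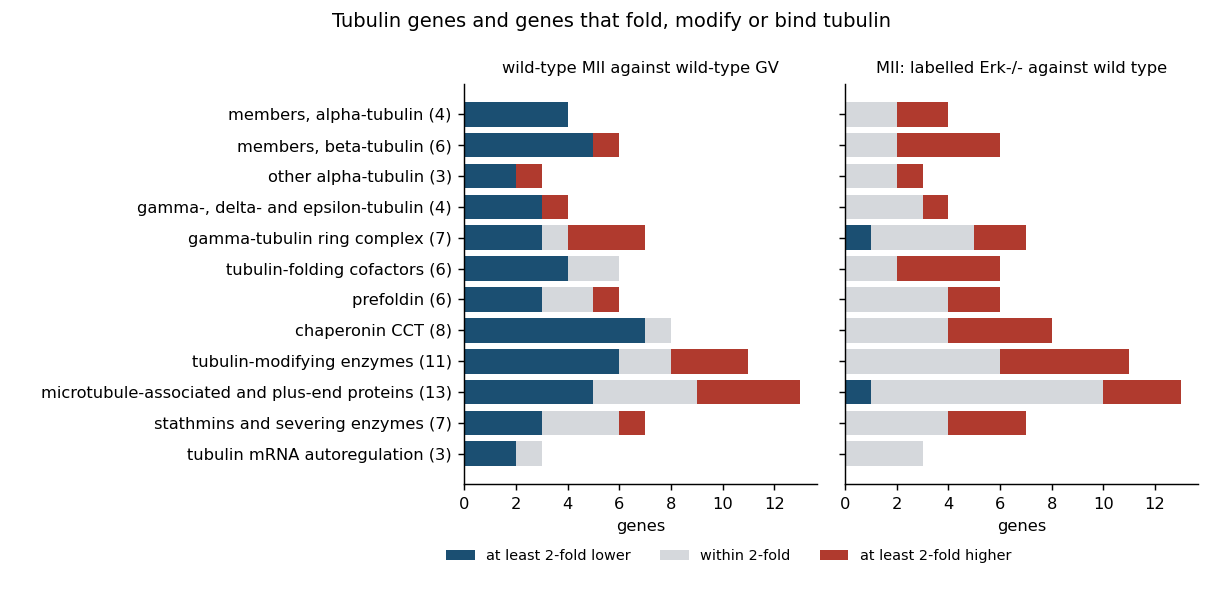
Number of genes at least 2-fold lower (blue), within 2-fold (grey) or at least 2-fold higher (red) in each list, with the number measured in brackets, for wild-type MII against wild-type GV (left) and for the MII library labelled Erk-/- against wild-type MII (right). The chaperonin has 7 of 8 genes lower on the left and 4 of 8 higher on the right, next to 9 of 10 and 6 of 10 for the isotypes. Of all genes, 49.6% were lower in the left comparison and 31.4% higher in the right one.

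Genes with the most similar course over the 4 libraries were sought for the isotype of each class with the highest mean FPKM, by the distance between log2 profiles centred on their own means, among 4800 genes averaging 10 FPKM or more. Tubb3 was nearest to Igf2r (distance 0.10), Mcu (0.11), Ccnb1 (0.11), Pdlim1 (0.13) and Tcl1 (0.13). Ccnb1, which encodes cyclin B1, had 208 and 201 FPKM at GV, and 973 and 884 FPKM at MII. Tuba1c was nearest to Arpc5l (0.08), Kars (0.12), Zranb1 (0.12), Phf14 (0.13) and Snrnp40 (0.13), with Tuba1a in place 41. With 4 points per profile, likeness is a description of these libraries.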

How the data were processed

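Paired-end Illumina libraries of mRNA from pooled oocytes were made with a NEB kit, per the labels' protocols; strand and poly(A) selection are not stated there. The submitters' processing notes name TopHat, CASAVA 1.8 and the genome build mm9. How FPKM was computed, from which annotation, and how multiply mapped reads were handled is not given in the sources used here. For each gene the authors deposited FPKM together with confidence bounds, per the file headers. From 23813 entries per library, values of 260 symbols on several lines were summed, leaving 23309 symbols. Ratios are log2 after adding 1, for 9990 genes averaging 1 FPKM or more; folds printed as such are ratios of FPKM without that 1. Code was tested on simulated data, with Python 3.11.15, numpy 2.4.6, pandas 2.3.3 and Biopython 1.88.

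The members and gene lists were chosen with earlier results of these data known, and the sequence searches after the values were seen. All 10 isotypes are named; some results are not reported here. From each list the rule names up to 4 genes of largest ratio, while Cct8, Tuba8, Tubb1 and Tubb4a were named after their values were seen. Alternatives were another number added, other filters, scaling, the authors' closest bounds and all genes of a class. Loci on mm9, with 1 added to the files' starts, are chr1:75211549-75215828 for Tuba4a, chr2:25077678-25080222 for Tubb4b, chr8:125935464-125945910 for Tubb3, chr13:34166147-34169877 for Tubb2a, chr13:34218877-34222223 for Tubb2b, chr15:98761862-98764821 for Tuba1b, chr15:98780278-98783932 for Tuba1a, chr15:98860322-98868536 for Tuba1c, chr17:35970865-35975246 for Tubb5 and chr18:67550385-67562403 for Tubb6.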

Additional observations from a re-analysis of the deposited data

Results flagged for a closer look

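Tubb2a was lower at MII than at GV in the wild type (log2 ratio -3.34) and slightly higher at MII in the libraries labelled Erk-/- (0.14), a log2 difference of 3.48 between the genotypes. The opposite directions singled it out. The difference was not tested, since each group has 1 library, and the ratio in the libraries labelled Erk-/- is within 2-fold.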

How the results depend on the processing

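Counts of isotypes at least 2-fold higher or lower stayed within 1.5 times their values under the alternatives run (0.1 in place of 1 added, no filter, a mean of at least 10 FPKM, genes listed at 0 left out, the highest entry kept for a symbol, the closest bounds, scaling). Median-of-ratios scaling moved their median wild-type ratio to -2.69. The closest bounds could be used for 4 isotypes (Tuba1a, Tuba4a, Tubb4b and Tubb5), since the others have values outside their bounds, and were not applied to the difference between maturation ratios. With them, 3 rather than 4 isotypes were lower at MII in the libraries labelled Erk-/-. Leaving out Tubb4b, an alternative chosen after seeing the data, gave 8 lower for wild-type maturation and 3 for that labelled Erk-/-. With 0.1 added, Tuba4a (-6.94) and Tubb5 (-5.76) moved further from 0 in the wild type. Counts over all genes depended on the filter: with a mean of at least 10 FPKM, 1218 were higher and 2553 lower in wild-type maturation, 1170 and 1854 in the libraries labelled Erk-/-, 647 and 788 between genotypes at GV, 1754 and 281 at MII, and 2070 and 742 for the difference. Leaving out genes listed at 0 gave 3196 lower in the wild type, 1449 higher and 2220 lower in the libraries labelled Erk-/-, 966 and 1183 at GV, 1980 and 428 at MII, and 2538 and 1101 for the difference. No paired analysis was possible because each group has 1 library. Values near 1 FPKM had bounds that reached up to 34.4% of their midpoint on each side of it.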
